A study of Arabidopsis thaliana with 8 samples.

Results

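The microRNA families numbered 400 and above were described in seedlings of Arabidopsis thaliana. A family belonged to the set when the number in its name was 400 or more. MIR403, MIR408 and MIR827, which are known from many plants, were left out by the rule. The rule took 24 of the 52 families in the small RNA table and used no measured value. The nearest families on either side of it by number were MIR399, outside, and MIR447, inside.

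All plants were Columbia, grown at 22 °C with 18 h of light and 6 h of dark, and were harvested as whole seedlings 10 days after germination in pools of 50. The wild type was compared with plants carrying the coffee homeobox gene CAHB12 behind 35S, a promoter active in most plant cells. There were 2 wild-type and 2 transgenic samples for small RNA and the same for mRNA, and the labels call them biological replicates. The design text speaks of a pair of transgenic lines, and the sample labels tie no replicate to a line. In small RNA each replicate 1 sample held 1 sequencing run and each replicate 2 sample held 2 runs, already combined in the deposited values.

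MicroRNAs are cut from hairpin precursors by DICER-LIKE proteins, loaded into ARGONAUTE proteins and used to find messenger RNAs of matching sequence, which are then cleaved or silenced. Families were numbered in order of discovery. The first numbers went mostly to abundant families shared by many plants, and many of the later ones are known only from Arabidopsis and its near relatives. Such young families are usually rare and often come from a single gene. A number is not an age: MIR482, which is in the set, belongs to a superfamily that targets disease-resistance genes in many flowering plants. The set is therefore called here by its numbers, not by age.

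The value of 1 read in each column gave small RNA libraries of 16715396 and 9463330 reads in wild-type replicates 1 and 2, and 7638192 and 6975406 reads in transgenic replicates 1 and 2. All listed families together took 4.59% and 6.74% of the wild-type libraries and 4.41% and 5.80% of the transgenic libraries. Levels are given as RPM, the reads of a family scaled to the library total. With 2 samples a group an exact permutation test of 1 family cannot go below p = 0.333, so tests come from models fitted over all families. In pooled whole seedlings, fewer cells that make a microRNA and less of it per cell cannot be told apart.

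The high-number families were rare. The median of their mean levels was 1.64 RPM, against 61.2 RPM for the 28 other families. Together they came to 181 and 295 RPM in wild-type replicates 1 and 2 and to 159 and 252 RPM in transgenic replicates 1 and 2. That was 0.394% (exact binomial 95% interval 0.380 to 0.408) and 0.437% (0.421 to 0.454) of all family reads in wild type. In the transgenic samples it was 0.360% (0.340 to 0.381) and 0.434% (0.414 to 0.455). These intervals and the later intervals of ratios cover counting error only. The 95% intervals of the limma fit rest on its SE instead. Just outside the rule, MIR399, the family that answers phosphate starvation, stood at 43.3 and 50.0 RPM in wild type and 51.1 and 53.3 RPM in the transgenic samples.

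**Figure D1:**
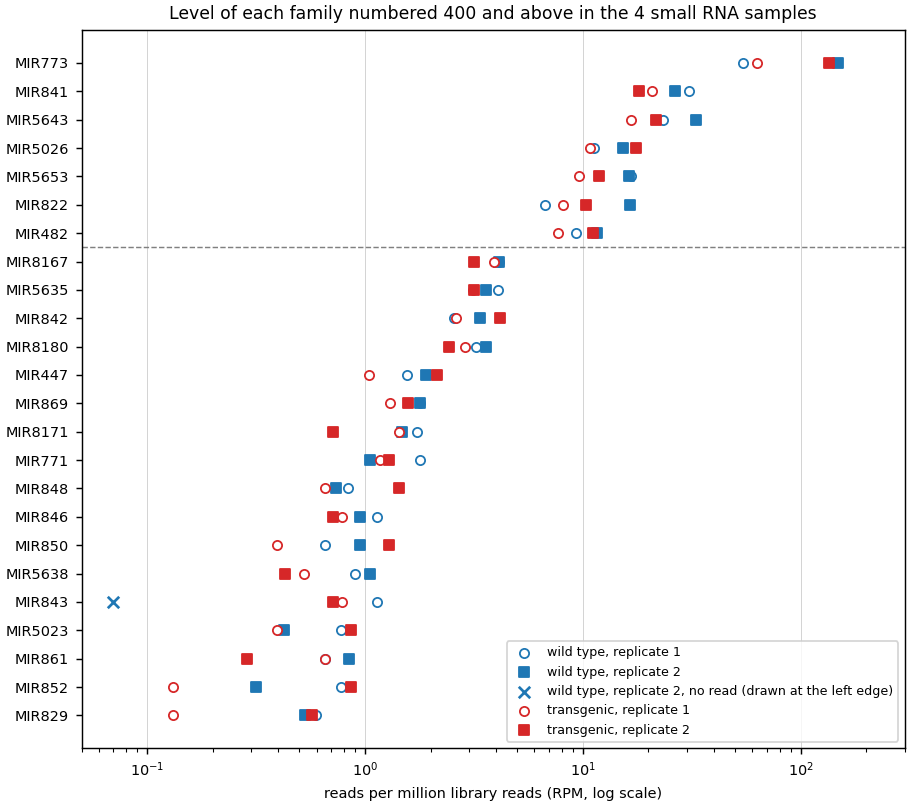
Level of each of the 24 families in each of the 4 small RNA samples, in RPM on a log axis, ordered by mean level, with colour for genotype and shape for replicate number; the dashed line divides means above and below 5 RPM, and the cross is MIR843 with no read in wild-type replicate 2, drawn at the left edge. MIR773 stands alone at the top, at 54.3 to 148 RPM, and the 9 families at the bottom have means under 1 RPM.

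MIR773 was the most abundant member. It is known for targeting MET2, a DNA methyltransferase gene. It stood at 54.3 and 148 RPM in wild-type replicates 1 and 2 and at 63.2 and 136 RPM in transgenic replicates 1 and 2. Both replicate 2 samples were high and both replicate 1 samples were low, and the genotypes overlapped. It held 30.003% and 50.4% of the members' summed level in wild type and 39.8% and 53.8% in the transgenic samples. Without it the other 23 families summed to 127 and 146 RPM in wild type and to 95.6 and 116 RPM in the transgenic samples. Both transgenic sums then lay below both wild-type sums, which was not so with MIR773 included. These sums hold MIR841, MIR5643 and MIR5653, each lower in both transgenic samples than in both wild-type samples. The part of these families in the sums was not tested.

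Means of 5 RPM or more were also reached by 6 further families. MIR841, which has been reported to target a histone H2A gene, stood at 30.9 and 26.6 RPM in wild type and 20.8 and 18.1 RPM in the transgenic samples. MIR5643 stood at 23.4 and 33.2 RPM in wild type and 16.6 and 21.6 RPM in the transgenic samples. MIR5653 stood at 16.7 and 16.3 RPM in wild type and 9.56 and 11.9 RPM in the transgenic samples. In each of these 3 families both transgenic samples were below both wild-type samples. The remaining 3 families overlapped between genotypes. MIR5026 stood at 11.3 and 15.3 RPM in wild type and 10.7 and 17.5 RPM in the transgenic samples. MIR822, whose precursor is known to be cut by DCL4 in place of the usual DCL1, stood at 6.70 and 16.5 RPM in wild type and 8.12 and 10.3 RPM in the transgenic samples. The single sample that stood apart for MIR822 was wild-type replicate 2. MIR482 stood at 9.27 and 11.6 RPM in wild type and 7.72 and 11.2 RPM in the transgenic samples. Its wild-type replicate 2 value was the single member value that moved, from 110 to 11 reads, at the lowest whole-read place.

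A second group of 8 families had means between 1 and 5 RPM. Of these, MIR8167 was the highest, at 4.13 and 4.12 RPM in wild type and 3.93 and 3.15 RPM in the transgenic samples. MIR5635 followed at 4.07 and 3.59 RPM in wild type and 3.14 and 3.15 RPM in the transgenic samples. MIR8180 stood at 3.23 and 3.59 RPM in wild type and 2.88 and 2.44 RPM in the transgenic samples. These 3 did not overlap between genotypes, with the transgenic samples lower. MIR842, known for targeting jacalin-related lectin genes, went the other way within each replicate number, at 2.57 and 3.38 RPM in wild type and 2.62 and 4.16 RPM in the transgenic samples, and its genotypes overlapped. MIR447, known for targeting a 2-phosphoglycerate kinase gene, stood at 1.56 and 1.90 RPM in wild type and 1.05 and 2.15 RPM in the transgenic samples. Its highest and lowest samples were both transgenic. MIR869 stood at 1.79 and 1.80 RPM in wild type and 1.31 and 1.58 RPM in the transgenic samples, with no overlap. MIR8171 stood at 1.73 and 1.48 RPM in wild type and 1.44 and 0.717 RPM in the transgenic samples, again with no overlap. MIR771 stood at 1.79 and 1.06 RPM in wild type and 1.18 and 1.29 RPM in the transgenic samples, which lay between the wild-type values. The 8 families rest on 58 to 160 reads each over all 4 samples.

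The last 9 families, MIR848, MIR846, MIR850, MIR5638, MIR843, MIR5023, MIR861, MIR852 and MIR829, had means from 0.458 to 0.916 RPM. None had more than 19 reads or 1.43 RPM in any sample. At this depth genotype differences among them were not tested in the fit described next. MIR843 was listed at 0 in wild-type replicate 2, where a count of 0 allows up to 0.317 RPM, and had 19, 6 and 5 reads in wild-type replicate 1 and transgenic replicates 1 and 2. MIR846 had exactly those 3 read numbers in the same samples and 9 reads in wild-type replicate 2. Of 1326 pairs of families in the table this was the single pair with equal reads in at least 3 samples, and whether they are separate measurements was not tested.

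The comparison of transgenic with wild-type seedlings asks which families differ when CAHB12 is expressed. MIR5653, MIR841 and MIR5643 were lower in the transgenic samples in a fit that takes the replicate number into account. The other 4 tested members did not pass. The fit was limma on log2(RPM + 1) with terms for genotype and replicate number, over the 29 families whose mean reached 5 RPM. Of the 24 members 7 reached that mean. All 3 called families in the table (10.3% of those tested) were members, with 0 of the other 22 families called, and 4 families (13.8%) had an unadjusted p under 0.05. The log2 difference, transgenic minus wild type, was -0.58 for MIR5653, -0.54 for MIR841 and -0.53 for MIR5643, each with an SE of 0.15 that the model shared over all families. Each had a Benjamini-Hochberg adjusted p of 0.0101 and was lower in both transgenic samples than in both wild-type samples. For MIR5653 the level was 16.5 ± 0.295 RPM in wild type and 10.7 ± 1.66 RPM in the transgenic samples (SD, n = 2 each). For MIR841 it was 28.7 ± 2.999 RPM and 19.4 ± 1.95 RPM. For MIR5643 it was 28.3 ± 6.92 RPM and 19.1 ± 3.55 RPM.

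These 3 calls depended on the model. Without the term for replicate number limma called 0 of the 29 families, with 0 at an unadjusted p under 0.05 and a lowest adjusted p of 0.972. With the term, edgeR's quasi-likelihood test on the recovered reads called 0 of 29 (3 at an unadjusted p under 0.05; adjusted p 0.0564 for each of the same 3 families). Fitted over all 52 families, a choice made after seeing the data, the same edgeR test called those 3 alone (5.77%), with an adjusted p of 0.0262 each. Scaling by TMM factors over the families, in place of the library total, gave 0 calls and a lowest adjusted p of 0.0540. With no filter on level limma called 0 of 52 families (lowest adjusted p 0.128, 5 at an unadjusted p under 0.05). With each value at its lowest whole-read place it called 0 of 29 (lowest adjusted p 0.133, 1 at an unadjusted p under 0.05). The log2 differences of the 3 families themselves were unchanged there, at -0.58 for MIR5653, -0.54 for MIR841 and -0.53 for MIR5643.

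Ratios within a replicate number describe the same values with their counting error. The transgenic level of MIR841 was 0.674 times the wild-type level in replicate 1 (exact 95% counting interval 0.561 to 0.807) and 0.678 times in replicate 2 (0.543 to 0.843). For MIR5653 the ratios were 0.573 (0.436 to 0.743) and 0.731 (0.553 to 0.961). For MIR5643 they were 0.711 (0.577 to 0.870) and 0.652 (0.534 to 0.795). All 6 intervals lay below 1. Both intervals lay below 1 in 6 of all 52 families (11.5%), these 3 and MIR159, MIR168 and MIR396, whose read numbers are far higher.

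The abundant member MIR773 differed in opposite directions in the 2 replicates. Its ratio was 1.17 (1.04 to 1.30) in replicate 1 and 0.913 (0.840 to 0.993) in replicate 2, and its log2 difference in the fit was 0.04 (adjusted p = 0.823). MIR822 also changed side, at 1.21 (0.874 to 1.67) and 0.626 (0.467 to 0.833), with a log2 difference of -0.19 (adjusted p = 0.691). The log2 difference was -0.14 for MIR482 (adjusted p = 0.691) and 0.06 for MIR5026 (adjusted p = 0.823). These limma values do not show that the 4 families were equal in the genotypes. The median difference over the 7 tested members was -0.19, beside -0.10 over all 29 families, and it was below 0 in 5 of the 7 and in 20 of the 29.

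**Figure D2:**
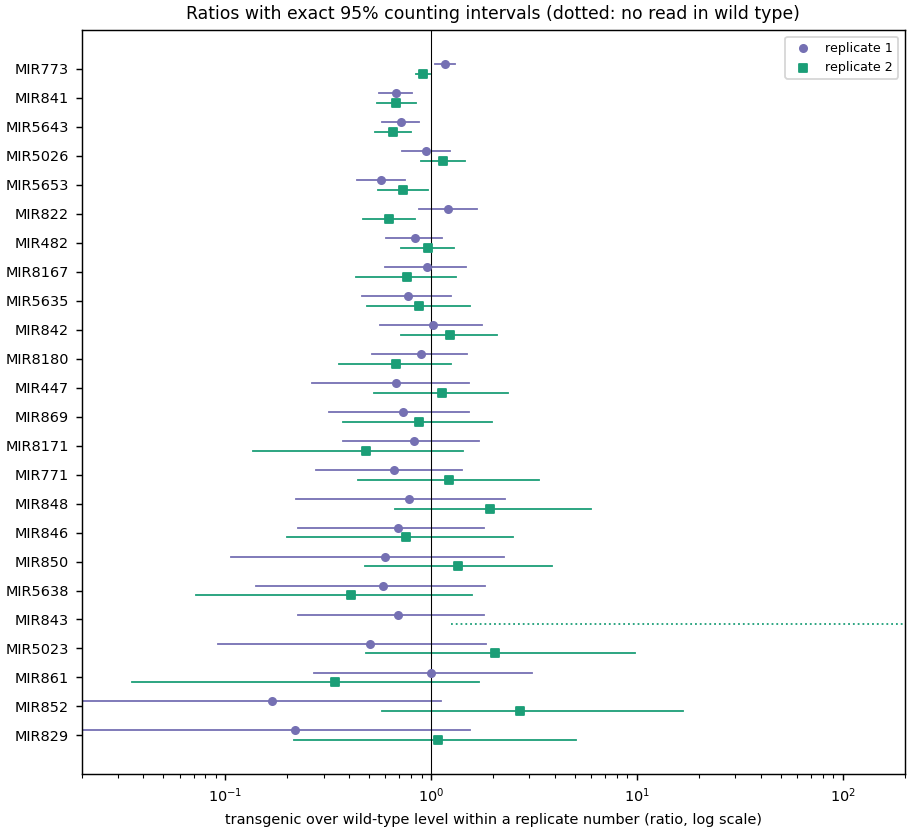
Transgenic over wild-type level within replicate 1 (circles) and within replicate 2 (squares) for all 24 families, ordered by mean level, as a ratio on a log axis with exact 95% counting intervals; the dotted line is MIR843, with no read in wild-type replicate 2. MIR841, MIR5653 and MIR5643 lie below 1 in both replicates, from 0.573 to 0.731, MIR773 and MIR822 lie on different sides of 1, and the intervals widen toward the rare families at the bottom.

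Counted over the whole set with no test, both transgenic samples were below both wild-type samples in 11 of the 24 members, and in 14 of all 52 families (26.9%). The same was true of 3 of the 28 other families. Both transgenic samples were above both wild-type samples in 0 of 24 members and in 1 of 52 families (1.92%). Within each replicate number the transgenic sample was lower both times in 12 of 24 members, against 23 of 52 families (44.2%), a share close to that over all families. It was higher both times in 1 member, MIR842, and in 5 of 52 families (9.62%). The wild-type libraries were the deeper ones and 17 of the 24 members lie under 5 RPM. The part of depth in these counts was not tested. The counting interval of the ratio excluded 1 for 4 of 24 members in replicate 1 (1 above and 3 below), against 17 of 52 families (32.7%). In replicate 2 it did so for 6 of 24 members (1 above and 5 below), against 18 of 52 families (34.6%).

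**Figure D3:**
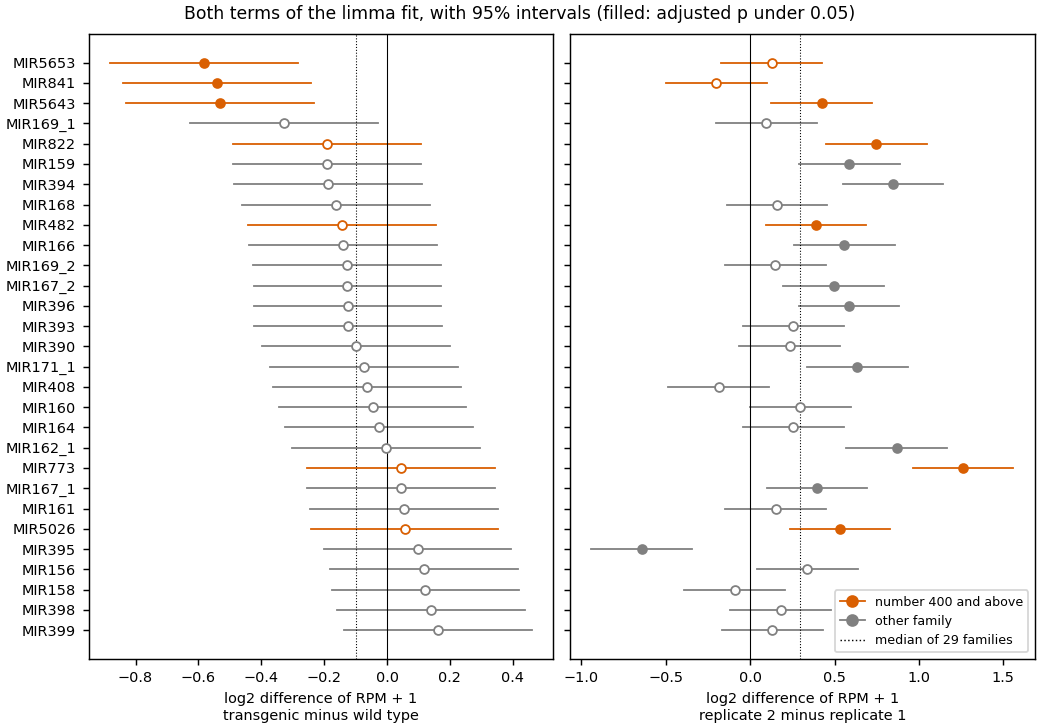
Log2 differences of RPM + 1 with 95% intervals for the 29 tested families from limma with both terms, transgenic minus wild type on the left and replicate 2 minus replicate 1 on the right; filled points have an adjusted p under 0.05, orange marks numbers of 400 and above, and dotted lines are the medians of the 29 families, -0.10 and 0.30. On the left 3 points are filled, MIR5653, MIR841 and MIR5643, and on the right MIR773 is the highest of the 29 at 1.26.

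Levels also differed between the replicate numbers. MIR773, MIR822, MIR5026, MIR5643 and MIR482 were higher in the replicate 2 samples in the same limma fit, 5 of the 7 tested members. Over all 29 families 14 were called (48.3%), with 13 (44.8%) higher in replicate 2 and 1 (3.45%) lower. The log2 difference, replicate 2 minus replicate 1, was 1.26 for MIR773 (adjusted p = 4.59e-08). It was 0.75 for MIR822 (adjusted p = 0.00013) and 0.53 for MIR5026 (adjusted p = 0.00302). It was 0.42 for MIR5643 (adjusted p = 0.0167) and 0.39 for MIR482 (adjusted p = 0.0255). MIR841 at -0.20 (adjusted p = 0.261) and MIR5653 at 0.13 (adjusted p = 0.419) did not pass. The edgeR fit over all 52 families called 4 members higher in replicate 2, MIR773, MIR822, MIR5026 and MIR5643, and 13 families in all (25%).

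The median difference over the 29 tested families was 0.30, and the families' share of the library was higher in both replicate 2 samples. Scaled by TMM factors the median became -0.12, and the calls became 3 higher and 4 lower of 29 (24.1%). Under that scaling MIR773 was still higher in replicate 2 (0.84, adjusted p = 4.25e-05) and MIR841 became lower (-0.61, adjusted p = 0.00183), the 2 members then called. With the same scaling edgeR called neither, at 0.92 for MIR773 and -0.55 for MIR841 (adjusted p = 0.0769 for each). MIR5653 turned to -0.27, and MIR822 at 0.36 no longer passed (adjusted p = 0.0690). The other 3 families fell short of the threshold too, at 0.14 for MIR5026 and at 0.02 and 0.00 for MIR5643 and MIR482. With each value at its lowest whole-read place limma called 0 of the 29 families between the replicate numbers, with 2 at an unadjusted p under 0.05. With 3 samples both terms leave no residual degrees of freedom, so a sample could be left out only with the genotype term dropped as well. Those limma fits called 0 to 3 members, with 0 of 29 families called without wild-type replicate 2 (9 at an unadjusted p under 0.05). The log2 difference of MIR5643 then ran from 0.13 without wild-type replicate 2 to 0.72 without transgenic replicate 2, and that of MIR822 from 0.43 to 1.06 without the same samples.

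**Figure D4:**
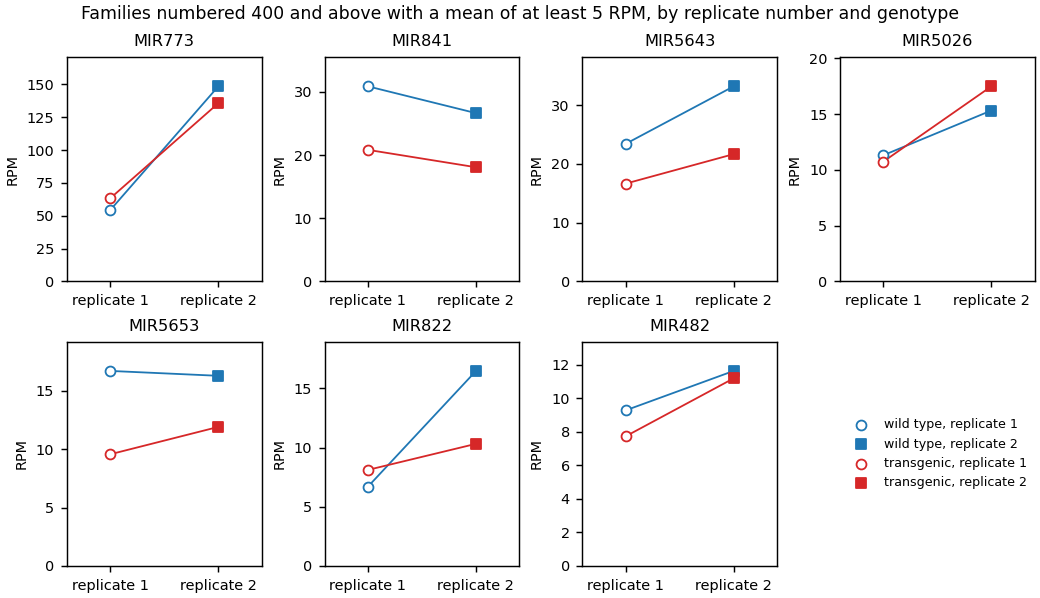
Level in RPM of the 7 tested members in replicate 1 and replicate 2, with lines joining the samples of the same genotype. MIR773 rises from 54.3 to 148 RPM in wild type and from 63.2 to 136 RPM in the transgenic samples, while MIR841 is lower in replicate 2 in both genotypes.

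The MIR773 level in replicate 2 was 2.74 times that in replicate 1 in wild type (2.52 to 2.98) and 2.14 times in the transgenic samples (1.92 to 2.40). For MIR822 the ratio was 2.46 (1.92 to 3.16) in wild type and 1.27 (0.893 to 1.82) in the transgenic samples. Over the set, replicate 2 was higher in both genotypes in 9 of 24 members, against 27 of 52 families (51.9%), and lower in both in 5 members, against 11 of 52 families (21.2%). Both replicate 2 samples were above both replicate 1 samples in 7 of 24 members, against 22 of 52 families (42.3%), and below them in 1 member, against 7 of 52 families (13.5%). Replicate 2 samples hold 2 runs and replicate 1 samples hold 1, so number of runs and pool cannot be told apart.

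RefSeq lists microRNA genes for 23 of the 24 families, 37 genes in all. It has no MIR482 gene in this species and lists MIR472, a member of that superfamily. A single gene was listed for 16 of the families, and the most were 6, for MIR8167. MIR5635 had 4 genes and MIR447 had 3. Another annotated gene overlapped 8 of the 37 genes, and for 5 of these it was protein-coding. Both MIR5643 genes lie between pseudogenes. MIR5026 and MIR850 are neighbours that both overlap the noncoding gene AT4G13495. MIR842 and MIR846 are also neighbours.

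Precursor transcripts of 4 members were listed in the mRNA table, and 0 of the 4 was called in either direction. In the mRNA comparison 17 of 20298 tested genes were called (0.0838%) by edgeR's quasi-likelihood test at an adjusted p under 0.05, 7 higher (0.0345%) and 10 lower (0.0493%) in the transgenic samples. An unadjusted p under 0.05 was found for 1608 genes (7.92%). DESeq2 called 76 genes, and edgeR with a replicate block called 596. None of the 4 precursors had an unadjusted p under 0.05 in edgeR. Counts of the MIR841a precursor were 11 and 18 in the wild-type samples and 15 and 5 in the transgenic samples, a log2 difference of -0.40 (adjusted p = 0.872). Counts of the MIR822 precursor were 30 and 36 in the wild-type samples and 34 and 40 in the transgenic samples, a log2 difference of 0.29 (adjusted p = 0.801). MIR850 had counts of 105 and 91 in the wild-type samples and 82 and 76 in the transgenic samples. MIR447a had counts of 9 and 16 in the wild-type samples and 14 and 8 in the transgenic samples. The first 3 overlap another gene (HTA4, AT5G03553 and AT4G13495), and no source used here says whether the counting used the strand, so their counts may hold reads of the partner.

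Reported targets of MIR482, MIR773, MIR841, MIR842 and MIR846 were looked up in the mRNA of the same genotypes. The target list held no gene for the other families, MIR5643 and MIR5653 among them. Of 9 target genes 5 were listed and 4 tested, and 0 rose or fell, with 2 at an unadjusted p under 0.05. The log2 differences of the 4 ran from -0.73 to 0.37 with a median of -0.07, beside a median of 0.01 over all genes. AT5G49850, a jacalin-related lectin gene targeted by miR846, had the smallest p. It stood at 7.41 and 6.78 CPM in wild type and 4.74 and 3.81 CPM in the transgenic samples. CPM are counts scaled to the library total corrected by a TMM factor. Both transgenic samples were below both wild-type samples, as for 19.3% of all tested genes, with a log2 difference of -0.73 (SE 0.19, adjusted p = 0.384 by edgeR). That result depended on the model: with a replicate block edgeR called AT5G49850 (-0.74, adjusted p = 0.0471), 1 target among 596 genes called. AT5G43740, a resistance gene of the type that miR472 targets, stood at 16.3 and 13.3 CPM in wild type and 20.1 and 18.2 CPM in the transgenic samples, above both wild-type samples as for 20.2% of tested genes, with a log2 difference of 0.37 (SE 0.14, adjusted p = 0.597). HTA4, the histone H2A gene that overlaps the MIR841a precursor, stood at 4.72 and 7.34 CPM in wild type and 5.37 and 4.05 CPM in the transgenic samples. Its log2 difference was -0.37 (adjusted p = 0.750), and the genotypes overlapped. MET2, the miR773 target, had counts of 9 and 12 in the wild-type samples and 5 and 13 in the transgenic samples and was too low to test.

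The listed genes of small RNA processing showed no called difference in the fit reported. All 9 of 9 listed genes (the DICER-LIKE genes DCL1 to DCL4, HYL1, SE, HEN1, HST and AGO1) were tested, 0 rose or fell, and 0 had an unadjusted p under 0.05. Their median log2 difference was -0.04. The smallest p belonged to HYL1, the partner of DCL1, at -0.21 (adjusted p = 0.689), and to DCL3, which makes small RNAs of silenced DNA, at 0.24 (adjusted p = 0.703).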

How the data were processed

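The small RNA values, in another unit, come as the authors scaled them. The column header reads RPKM. A single read had 1 fixed value down each column, whatever the family, so the unit is RPM. In the deposited table, values of 1 and above had lost the decimal mark. It was restored at the place where a value is a whole number of reads (within 0.01 reads; 163 of 208 values, 64 of 96 in the set) and the 4 values of a family come nearest to each other. That rule can misplace a family whose samples differ strongly. Higher places give whole reads too, and among equally near placings the one with the lowest sum was taken. The level of a family with all 4 values restored rests on that choice. Placing each value at its lowest whole-read place instead changed 1 member, MIR482.

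Per the file headers, the mRNA values are unscaled counts for each locus, and transcript lengths (another unit, bases) come as deposited. Tools and builds named in the submitters' processing notes are BWA 0.5.8c, Bowtie, edgeR and TAIR9, with no role stated for any of them. RefSeq names follow a later build, so no coordinates are given. A further 8 per-sample mRNA columns (CPM and RPKM) were not used. The authors' own fold changes and p-values were not used. Total counts of the mRNA libraries were 15682546 and 19436632 for the wild-type replicates and 15424261 and 16615556 for the transgenic ones.

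Small RNA was tested with limma 3.58.1 in R 4.3.3 on log2(RPM + 1), mean of at least 5 RPM, with terms for genotype and replicate number. The labels show that the numbers mark samples of 1 run and of 2 runs. Deviations of same-numbered samples from their group means correlated at 0.761 over the 29 families, a single value for both numbers with 2 samples a group. mRNA was tested with edgeR 4.0.16 (TMM, filterByExpr, quasi-likelihood) with no covariate. Adjusted p is Benjamini-Hochberg over all features tested, called under 0.05. P-values of the limma fit measure the spread left after both terms, held as 1 shared value for all 29 families whatever their level. A family's own spread therefore plays no separate part in its p-value. For mRNA the p-values measure the spread between these pools and runs. Either spread may in part be technical. Within-number ratios carry exact 95% counting intervals, and a count of 0 allows 3 counts. Alternatives were other pseudocounts and filters, TMM, edgeR and DESeq2 1.42.0, no replicate block, and each sample left out. The scripts used Python 3.11.15, and the fits were tested on simulated data.

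Members and lists were chosen with earlier results of these data known. Every member is named. Members at 1 RPM or more get values in every sample. Of the targets, the gene with the smallest p of each family is named, and of the processing genes the 2 with the smallest p. The miR472 targets were matched to the table's MIR482 after its family names were seen. A further gene of the target list is not reported here and is left out of its counts and median.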

Additional observations from a re-analysis of the deposited data

How the results depend on the processing

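Depth limits the set: 17 of the 24 families have means under 5 RPM. For the genotype difference in small RNA, 3 families and 3 members were called in the fit reported, and the same 3 families with pseudocounts of 0.5 and 0.1 RPM and with a filter of 1 RPM. The count was 0 for both with no filter, at the lowest whole-read place, with TMM factors, with no replicate block, with edgeR with and without the replicate block, and with edgeR, the block and TMM (added after seeing the data). The cause of these changes in the count was not tested. With 1 sample left out the block had to be dropped. All 4 samples without the block already gave 0 calls, so such fits cannot show whether the calls rest on 1 sample. The difference of MIR482 became 1.13 at the lowest whole-read place, and that of MIR773 became -0.026 in edgeR with no replicate block. Leaving out 1 sample, again with no block, gave ranges of -0.38 to 0.10 for MIR482 (0.0051 without wild-type replicate 2), -0.27 to 0.38 for MIR5026 (-0.15 without wild-type replicate 1), -0.67 to 0.76 for MIR773 (-0.50 without transgenic replicate 2) and -0.78 to 0.40 for MIR822. It gave -0.73 to -0.44 for MIR5653, -0.64 to -0.44 for MIR841 and -0.77 to -0.29 for MIR5643. For the replicate-number difference, 14 families and 5 members became 0 and 0 at the lowest whole-read place, 7 and 2 with TMM, and 1 and 0 with edgeR, the block and TMM. Leaving out 1 sample and the genotype term together gave 0 to 10 families and 0 to 3 members, the 0 being without wild-type replicate 2. MIR482 became -0.88 at the lowest place, and MIR5653 became -0.27 with TMM and -0.22 with edgeR and TMM. The same 2 changes together moved MIR5653 between -0.25 and 0.50 (-0.083 without wild-type replicate 2) and MIR841 between -0.47 and 0.073 (0.067 without transgenic replicate 2). For mRNA, the 17 genes became 596 with a replicate block and 76 with DESeq2. They ranged from 16 to 411 with 1 sample left out, at 72 without wild-type replicate 1 and 411 without wild-type replicate 2. With a replicate block 1 target was called, AT5G49850 (-0.74, adjusted p = 0.0471). In the labels same-numbered mRNA samples share only a number. Their deviations from the group means correlated at 0.285 over 20298 genes, and what else they share was not tested. No processing or precursor gene was called under any alternative run. With 1 sample left out the sign changed for these uncalled mRNA genes: DCL1 (-0.13 to 0.12), SE (-0.13 to 0.043), HEN1 (-0.047 to 0.020), HST (-0.016 to 0.15), AGO1 (-0.13 to 0.011), MIR447a (-0.54 to 0.31), MIR841a (-1.41 to 0.20) and MIR850 (-0.45 to 0.064).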
